A study of Rattus norvegicus with 12 samples.

Results

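The Egr genes and their Nab corepressors were followed here across 12 one-colour rat microarrays of striatal RNA, as 6 genes taken by name: Egr1, Egr2, Egr3, Egr4, Nab1 and Nab2. Each was found once among the 35608 named genes of the array, and all 6 passed the filter on dim probes that left 20397 genes for testing. All rats were male and carried 9 µg of 6-hydroxydopamine (6-OHDA) injected on the left side into the substantia nigra pars compacta, which destroys the nigrostriatal dopamine neurons. The 6-OHDA group had the lesion alone. The HFS group had in addition 5 days of continuous high frequency stimulation of the subthalamic nucleus on the lesioned side (130 Hz, pulses of 80 µs, 60 µA). The DOPA group received 25 mg/kg L-DOPA with 12.5 mg/kg benserazide, 2 injections per day for 19 days. The DOPA/HFS group received the same L-DOPA treatment with stimulation over its last 5 days. Each group held 3 animals, with 1 array per animal. Of these 4 groups, the study describes electrode implantation for the HFS and DOPA/HFS rats, so stimulation and implantation cannot be told apart, and no unlesioned rat was analysed here. Stimulated rats were killed as soon as the current was turned off, and L-DOPA rats 12 h after the last injection.

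The Egr genes encode zinc finger transcription factors of the immediate early class, which neurons transcribe within minutes of synaptic activity through kinase cascades and the serum response factor (SRF), and which bind GC-rich sites in other promoters. Nab1 and Nab2 are corepressors that bind Egr proteins and dampen their activity, and Nab2 is itself an Egr target, which closes a feedback loop. In the striatum, Egr1 (also called zif268) is a common readout of dopamine and glutamate input to the projection neurons.

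Slide position went with group on all 3 slides, each of which carried 1 array of each group, so that position and group cannot be told apart. The share of spots well above background was 53.8% to 58.9% in the 6-OHDA, 60.3% to 63.2% in the HFS, 50.5% to 58.0% in the DOPA and 60.0% to 62.8% in the DOPA/HFS arrays. Every array of a stimulated rat thus lay above every array of an unstimulated one. The part of this in the levels of dim genes was not tested. The third DOPA/HFS array had 4175 outlier spots against 2 to 25 elsewhere, none of them a spot of an Egr or Nab gene. Of the 11 striatal projection neuron markers on the array, 10 were well above background on all 12 arrays, and the other, Rgs9, on the 11 arrays where its spot was not an outlier. The summed signal of 6 choroid plexus markers was 4301 to 89055 in the HFS group and 262 to 393 in the 6-OHDA group. It was 275 to 919 in the DOPA/HFS group and 229 to 16494 in the DOPA group, which overlapped with HFS.

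Promoter sequences were available for 5 of the 6 genes in the RefSeq table of build GRCr8; Egr3 had no entry. The 250 bases before the start site are shown for Egr1, Egr2 and Egr4, because these genes went up and down together over the arrays, as described further on. Capitals mark CArG boxes (the SRF site) and the ACGTCA core of the cAMP response element, which binds CREB. Egr1 lies at chr18:26736828-26737077 on the plus strand, Egr2 at chr20:21054442-21054691 on the minus strand and Egr4 at chr4:119607818-119608067 on the minus strand. The Egr2 window lies inside the annotated span of the gene, chr20:21050149-21055201, so it precedes an internal start site and not the outermost one. The windows of Nab1 and Nab2 also overlap the spans of their genes.
Egr1: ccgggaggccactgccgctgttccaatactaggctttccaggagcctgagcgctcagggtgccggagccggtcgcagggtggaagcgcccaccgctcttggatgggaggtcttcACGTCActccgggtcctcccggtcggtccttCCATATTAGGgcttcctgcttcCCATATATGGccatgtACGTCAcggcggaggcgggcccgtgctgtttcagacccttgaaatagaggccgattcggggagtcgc
Egr2: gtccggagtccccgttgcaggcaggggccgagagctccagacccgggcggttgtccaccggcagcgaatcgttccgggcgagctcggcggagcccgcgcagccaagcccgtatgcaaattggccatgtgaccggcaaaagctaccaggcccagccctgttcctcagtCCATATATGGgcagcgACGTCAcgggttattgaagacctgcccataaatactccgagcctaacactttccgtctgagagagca
Egr4: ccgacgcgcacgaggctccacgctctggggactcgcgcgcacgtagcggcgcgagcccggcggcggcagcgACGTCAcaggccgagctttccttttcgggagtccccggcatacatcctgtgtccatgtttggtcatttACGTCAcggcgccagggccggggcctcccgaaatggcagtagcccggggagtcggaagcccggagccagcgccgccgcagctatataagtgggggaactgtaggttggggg
Egr1 held 2 CArG boxes, CCATATTAGG and CCATATATGG, and 2 ACGTCA cores. Egr2 held 1 CArG box with the same letters as the second of Egr1, and in both promoters this box lay 83 to 74 bases and an ACGTCA core 67 to 62 bases before the start. Egr4 held 2 ACGTCA cores and no CArG box in this window. Over all 33469 promoters of the table, 1.5% held a CArG box and 6.95% an ACGTCA core on either strand in the same window. Nab1 and Nab2 held neither. The Egr binding sequence GCGTGGGCG occurred 2 times and its variant GCGGGGGCG 1 time before Nab1, against 0.478% and 2.45% of all promoters with a match on either strand. None of the other 4 promoters held either of them. A match is a stretch of letters and not a measured site.

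Egr1 was measured by 1 probe printed on 10 spots of each array. Its log2 signal was 12.99, 13.28 and 13.03 in the 6-OHDA rats, 13.60, 13.42 and 12.55 in the HFS rats, 12.82, 13.04 and 12.98 in the DOPA rats and 12.35, 12.68 and 12.80 in the DOPA/HFS rats. The HFS group thus spanned from the highest to nearly the lowest array, whereas all DOPA/HFS arrays lay below every 6-OHDA and every DOPA array. Over all genes, 2.45% were lower in DOPA/HFS than in 6-OHDA without overlap, and the share against DOPA was not computed. The 10 spots of an array had an SD of 0.0377 to 0.0863 on the log2 scale. The SD between the 3 arrays of a group was 0.562 in HFS, 0.230 in DOPA/HFS, 0.160 in 6-OHDA and 0.113 in DOPA. Spots of 1 array share labelling and hybridisation, so their SD leaves these errors out, and the spread between arrays holds them together with the spread between animals.

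**Figure D1:**
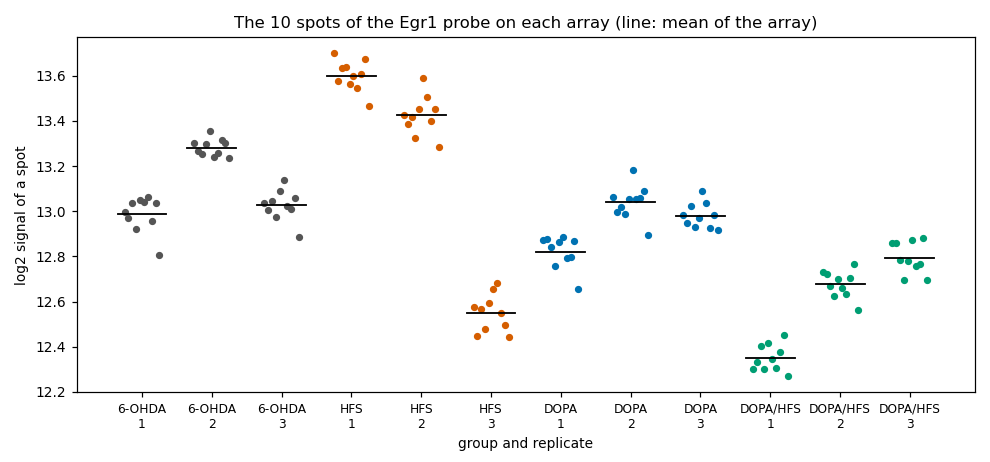
Log2 signal of the 10 spots of the Egr1 probe (y axis) on each of the 12 arrays (x axis, group and replicate), with the array mean as a line. The third HFS array, at 12.55, sits apart from the first, at 13.60, by far more than the spots of either array differ from each other.

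Egr4, a neuron-restricted member of the family, had log2 signals of 14.15, 14.27 and 14.13 in the 6-OHDA group and 14.92, 14.48 and 13.47 in the HFS group. It gave 13.85, 14.02 and 13.90 in the DOPA group and 13.09, 13.98 and 13.80 in the DOPA/HFS group. The 6-OHDA and DOPA arrays each formed a tight cluster, with SDs of 0.0782 and 0.0869, and these clusters did not overlap. The first 2 HFS arrays lay above all others and the third below all but 1.

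Egr2, known as Krox20 for its part in hindbrain and Schwann cell development, had the widest range of the 6 genes. The 6-OHDA group gave log2 signals of 8.14, 8.39 and 8.81, the HFS group 11.25, 10.06 and 7.96, the DOPA group 7.73, 8.01 and 8.20, and the DOPA/HFS group 7.49, 8.02 and 8.00. The same 2 HFS rats that were highest for Egr1 and Egr4 were highest here, and the third HFS rat was below all 6-OHDA rats. The SD of Egr2 within the HFS group, 1.66, ranked 33 of 18349 genes with a value on every array, so that 0.18% of genes varied as much between these 3 animals. The corresponding shares were 3.07% for Egr4 and 7.72% for Egr1. In the other 3 groups the shares for these 3 genes were 17.1% to 94.1%.

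Egr3, which is induced with Egr1 by activity in many brain regions, was close to background here and was well above it on 10 of 12 arrays. Its log2 signals were 5.42, 5.01 and 5.68 in the 6-OHDA group, 5.71, 5.52 and 5.46 in the HFS group, 5.35, 5.31 and 5.03 in the DOPA group, and 5.16, 4.65 and 5.30 in the DOPA/HFS group. The second 6-OHDA array and the third DOPA array were not well above background. The HFS arrays lay above all DOPA and all DOPA/HFS arrays, and the other pairs of groups overlapped. The share of all genes with such a separation was not computed.

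Nab2 gave log2 signals of 8.77, 8.72 and 9.21 in the 6-OHDA group, 8.65, 9.32 and 9.22 in the HFS group, 8.61, 8.71 and 8.83 in the DOPA group, and 9.12, 8.58 and 8.58 in the DOPA/HFS group. All groups overlapped, and the whole range was under 1 log2 unit. The first HFS rat, highest for Egr1, Egr2 and Egr4, was the fourth lowest of all for Nab2, and the first DOPA/HFS rat, lowest for those 3 genes, was the fourth highest. Nab1 was near background, well above it on 6 of 12 arrays: 1 of 3 in the 6-OHDA group, 3 of 3 in the HFS group, 0 of 3 in the DOPA group and 2 of 3 in the DOPA/HFS group. Its signals were 5.64, 3.73 and 5.40 in the 6-OHDA group, 5.03, 5.58 and 5.38 in the HFS group, 4.80, 5.24 and 4.67 in the DOPA group, and 4.82, 5.40 and 4.79 in the DOPA/HFS group. Because no DOPA array was well above background, the signal there is only a bound. It took for each DOPA array the lowest signal that was well above background or the probe's own, whichever was higher. The mean level was 1.06-fold this bound in HFS, 0.80-fold in 6-OHDA and 0.84-fold in DOPA/HFS. These ratios carry no error, and the first HFS array (5.03) lay below the second DOPA array (5.24), so no difference was shown. Nab1 passed the filter on dim probes with 6 arrays, 3 of them in HFS, so its detection there is not separate evidence.

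**Figure D2:**
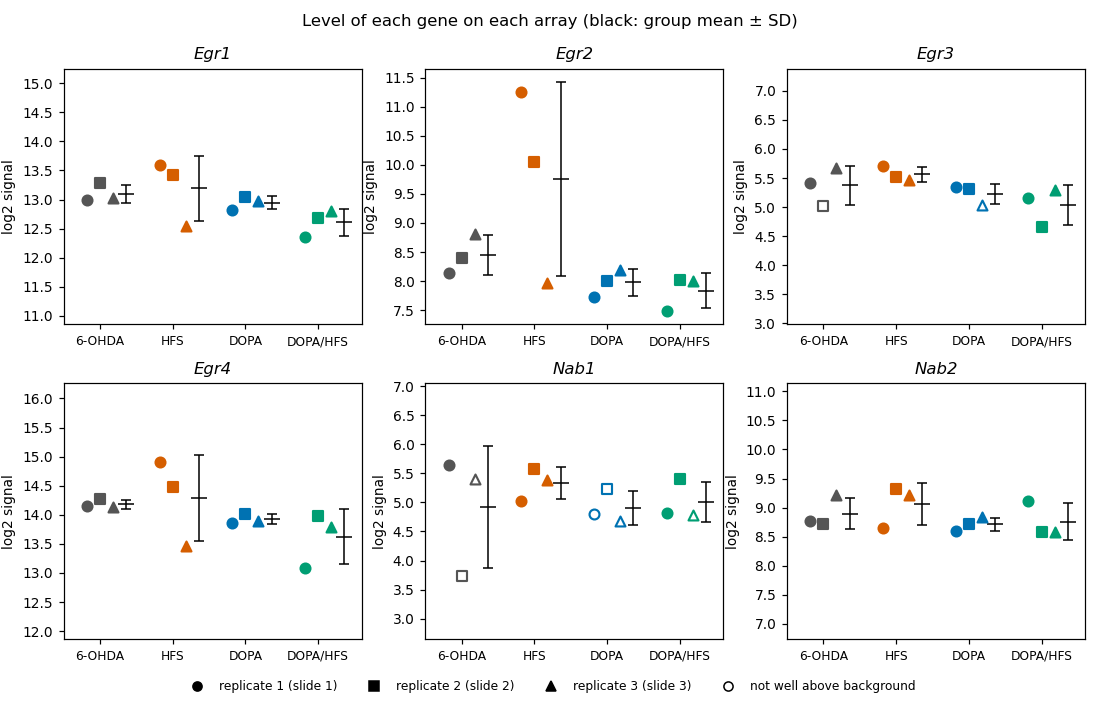
Quantile normalized log2 signal (y axis, the same span in each panel) of the 6 genes on each array, by group (x axis), with replicate as symbol, open symbols where the spot was not well above background, and the group mean ± SD in black. In Egr1, Egr2 and Egr4 the HFS arrays of replicates 1 and 2 lie above the third, at 11.25 and 10.06 against 7.96 in Egr2.

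The order of group means was the same for all 4 Egr genes, HFS above 6-OHDA, then DOPA, then DOPA/HFS. Of the 12 steps between neighbours in these orders, 10 joined groups that overlapped. The exceptions were the step from DOPA to DOPA/HFS in Egr1, 0.34 on the log2 scale, and that from 6-OHDA to DOPA in Egr4, 0.26, each with an exact permutation p = 0.1 (two-sided, n = 3 against 3), the smallest value that 3 against 3 arrays allow. Over all genes, 3.05% were lower in DOPA than in 6-OHDA without overlap, and the share for DOPA/HFS against DOPA was not computed. Because this test cannot give a p below 0.1 here, it could not decide the ranking of the groups, whatever their values. For Nab2 the order was HFS, 6-OHDA, DOPA/HFS and DOPA, and for Nab1 HFS, DOPA/HFS and 6-OHDA, with overlap at every step and DOPA not placed, since it is a bound.

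HFS alone was compared with the lesion to ask which striatal genes stimulation altered. With limma fitted across all tested genes, 0 of the 6 genes were called, as were 0% of all 20397 genes. A call needed a Benjamini-Hochberg adjusted p below 0.1 together with a fold change above 1.2 or below 0.8. At an unadjusted p under 0.05 there were 0 of the 6 genes in either direction, against 1.14% of all genes lower and 1.21% higher. Egr2 came nearest, at 2.48-fold the 6-OHDA level, a log2 difference of 1.31 ± 0.62 (SE) with a limma adjusted p = 0.998. Its difference from the 6-OHDA array of the same slide was 3.12, 1.66 and -0.85 on the 3 slides. Without the third HFS rat the Egr2 difference was 2.21 (limma adjusted p = 0.572), and without the first it was 0.56. Egr1 differed by 0.09 ± 0.25 and Egr4 by 0.11 ± 0.33, and both were below 0 without the first HFS rat, at -0.11 and -0.21. Egr1 was also below 0 without the second HFS rat (-0.024), and Egr4 with arrays scaled to their 75th percentile (-0.0093). Egr3 differed by 0.19 ± 0.21, Nab1 by 0.41 ± 0.42 and Nab2 by 0.17 ± 0.22 on the same scale. None of the 6 genes separated the groups without overlap, which 2.91% of genes did upward and 2.23% downward.

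The choroid plexus markers moved with the same comparison. All 7 tested genes of that list were higher in the HFS group, by a median log2 difference of 3.48, and all 7 had a limma p under 0.05 unadjusted with 0 called. Their order over the animals differed from that of the Egr genes. Summed choroid plexus signal was 89055, 4301 and 44689 in HFS replicates 1, 2 and 3, whereas Egr1, Egr2 and Egr4 were high in replicates 1 and 2. The part of choroid plexus RNA in the Egr levels was not tested.

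L-DOPA alone was compared with the lesion to ask what a dyskinesia-inducing treatment changed. The 4 Egr genes and Nab2 lay below the 6-OHDA mean, as did 52.3% of all genes, while Nab1 had only a bound in DOPA that does not place it above or below. Limma called 0 of the 6, against 0.0049% of genes (1 gene, Igsf5, named here after its value was seen), with 0 of the 6 at an unadjusted p under 0.05 (1.26% of all genes lower, 1.32% higher). The log2 differences were -0.15 ± 0.25 (SE) for Egr1, -0.47 ± 0.62 for Egr2, -0.14 ± 0.21 for Egr3, -0.26 ± 0.33 for Egr4 and -0.18 ± 0.22 for Nab2. Each SE pools the spread within all 4 groups, so it includes HFS, which is not compared here. The SD of Egr4 was 0.745 in HFS against 0.0782 in 6-OHDA and 0.0869 in DOPA. For Egr2 it was 1.66 in HFS against 0.343 and 0.238. Egr4 was the single gene of the 6 without overlap, lower in DOPA by 0.30, 0.25 and 0.23 within the 3 slides, where 3.05% of all genes were lower without overlap. The Egr3 difference was 0.013 without the third 6-OHDA rat. Over the 12 fits with 1 array left out, Egr1 ran from -0.21 to -0.061, Egr2 from -0.63 to -0.29 and Nab2 from -0.27 to -0.027. Choroid plexus genes had a higher mean in DOPA, 7 of 7 with a median of 0.87, but not all 3 rats shared this. The summed signal of 6 of them was 229, 1492 and 16494 in DOPA replicates 1, 2 and 3, against 262 to 393 in 6-OHDA.

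The combined treatment was then set against the same 3 lesion arrays, so the 3 comparisons with 6-OHDA are not independent. Egr1 was at 0.711 of the 6-OHDA level, a log2 difference of -0.49 ± 0.25 (SE). Egr4 was at 0.678 of it (-0.56 ± 0.33), and Egr2 at 0.655 (-0.61 ± 0.62). These SEs again include the HFS group, where the SD of Egr2 was 1.66 against 0.343 in 6-OHDA and 0.300 in DOPA/HFS. In all 3 genes every DOPA/HFS array lay below every 6-OHDA array, with an exact permutation p = 0.1 each (n = 3 against 3), and the difference was below 0 on each of the 3 slides. Non-overlap in this direction was found for 3 of the 6 genes and for 2.45% of all genes. Egr3, at -0.33 ± 0.21, Nab2, at -0.14 ± 0.22, and Nab1, at 0.08 ± 0.42, overlapped. Limma called 0 of the 6 genes and 0% of all genes, with a lowest limma adjusted p of 0.9997 among the 6. At an unadjusted limma p under 0.05 there were 0 of the 6 (1.92% of all genes lower, 0.829% higher). The study lists Egr1 as lower in this comparison, selected by Significance Analysis of Microarrays and then a Wilcoxon test, whereas limma did not call it here. The Egr4 difference was -0.29 without the first DOPA/HFS rat.

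**Figure D3:**
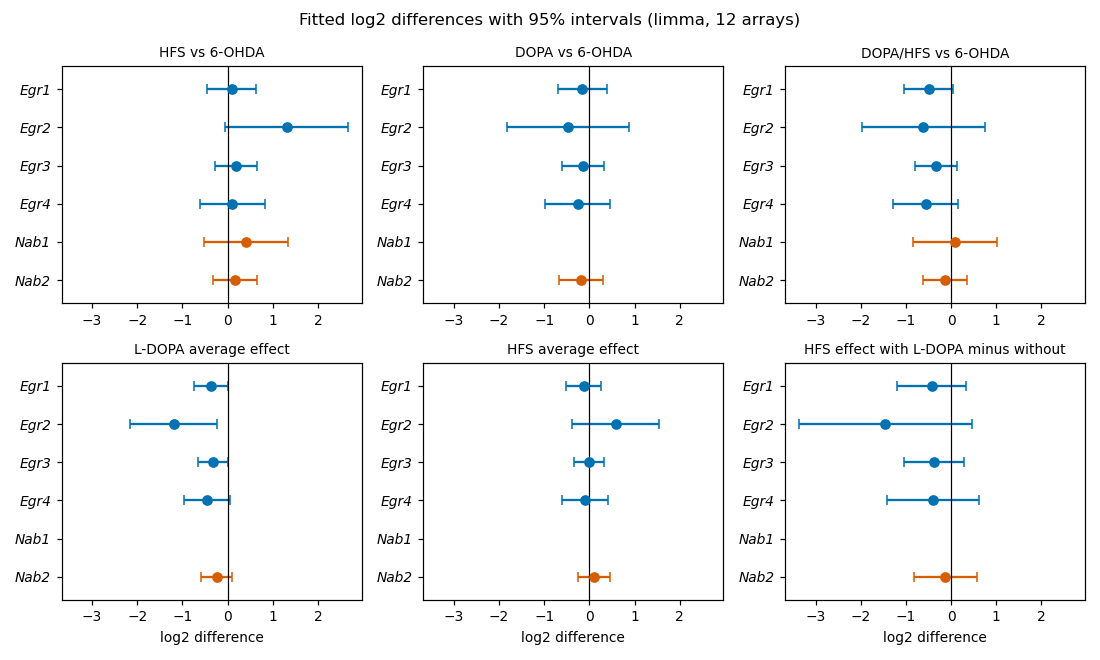
Log2 difference (x axis) of each gene in the 6 comparisons, as the limma estimate with its 95% interval over 12 arrays. Egr genes are in blue and Nab genes in orange, and Nab1 is left out where the comparison rests on the DOPA group. The Egr2 and Egr3 intervals for the average L-DOPA difference leave out 0, and so do no others.

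Averaged over unstimulated and stimulated rats, the arrays with L-DOPA were lower than those without for all 4 Egr genes and for Nab2. Egr2 was at 0.437 of the level without L-DOPA, a log2 difference of -1.19 ± 0.44 (SE), with a limma adjusted p = 0.9998. An exact permutation of the labels within unstimulated and within stimulated rats gave p = 0.03 (two-sided, n = 6 against 6). Egr3 differed by -0.33 ± 0.15 with a limma p of 0.0491 before adjustment and an exact permutation p = 0.065. Egr4 differed by -0.46 ± 0.23, Egr1 by -0.37 ± 0.17 and Nab2 by -0.24 ± 0.16, with unadjusted limma p-values of 0.0713, 0.0592 and 0.15. None of the 6 genes was called, against 0.0049% of all genes, and 2 of the 6 had a lower level at an unadjusted limma p under 0.05, against 1.49% of genes, with 0 of 6 higher against 1.25%. Below 0 were 54.6% of all genes. Leaving out any 1 array kept the sign of the 4 Egr differences. The Egr2 difference was -1.64 without the third HFS rat and -0.82 without the first, and Egr3 had an unadjusted limma p above 0.05 in 10 of the 12 fits with 1 array left out. Markers of other cell types were also lower with L-DOPA in this comparison, 7 of 7 choroid plexus genes (median log2 difference -1.02) and 4 of 4 ependyma genes (-0.44). Of either list, 0 had an unadjusted limma p under 0.05. Against 6-OHDA the choroid plexus median was above 0 in HFS (3.48), DOPA (0.87) and DOPA/HFS (0.56, 5 of 7 genes higher). The HFS group, which counts as without L-DOPA, was thus the highest. The ependyma medians were 0.52, -0.45 and 0.09 in the same order. The part of these markers in the Egr differences was not tested.

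The average difference with stimulation was smaller. It was 0.58 ± 0.44 (SE) for Egr2, -0.12 ± 0.17 for Egr1, -0.10 ± 0.23 for Egr4, -0.0021 ± 0.15 for Egr3 and 0.10 ± 0.16 for Nab2 on the log2 scale, with 0 of 6 genes called, 0% of all genes called and 0 of 6 at an unadjusted limma p under 0.05 (2.7% of all genes lower, 1.66% higher). The signs for Egr1, Egr3 and Egr4 changed when single arrays were left out. Choroid plexus genes were higher with stimulation, 7 of 7 with a median of 1.71. Whether stimulation acted differently under L-DOPA was tested by the interaction, which was -1.45 ± 0.87 for Egr2, -0.43 ± 0.35 for Egr1, -0.41 ± 0.46 for Egr4, -0.38 ± 0.30 for Egr3 and -0.12 ± 0.32 for Nab2. The limma p-values ran from 0.124 to 0.702 with 0 of the 6 genes and 0% of all genes called, and 0 of the 6 at an unadjusted p under 0.05 (1.24% of all genes lower, 0.74% higher). Over the 12 fits with 1 array left out the interaction ran from -2.35 to -0.70 for Egr2, from -0.75 to -0.23 for Egr1, from -0.82 to -0.092 for Egr4 and from -0.54 to -0.19 for Egr3. The 7 choroid plexus genes were all below 0 in the interaction (median -3.56), 5 of them at an unadjusted limma p under 0.05, and their part was not tested. The direction of the stimulation difference in Egr1, above 0 without L-DOPA and below 0 with it, was thus not shown to depend on L-DOPA. In tissue samples such as these, fewer cells that express a gene and less RNA per cell cannot be told apart.

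Over the 12 arrays, Egr1, Egr2 and Egr4 varied together. Of the 15 pairs among the 6 genes, 3 had an adjusted permutation p under 0.05 (Benjamini-Hochberg over the 15), and these were the 3 pairs of these genes. Egr1 and Egr4 had Pearson r = 0.95 (permutation p = 1e-05, the smallest that 100000 resamples can give, adjusted p = 0.00015) and Spearman rho = 0.93 (permutation p = 6e-05, adjusted p = 0.0009). Without the 2 arrays farthest from the Egr1 median, the first HFS and the first DOPA/HFS array, r was 0.91. Egr1 and Egr2 had r = 0.84 (permutation p = 7e-05, adjusted p = 0.000525), rho = 0.85 (permutation p = 0.00121, adjusted p = 0.00605), and r = 0.75 without the same 2 arrays. Egr2 and Egr4 had r = 0.84 (permutation p = 0.00021, adjusted p = 0.00105), rho = 0.90 (permutation p = 0.0002, adjusted p = 0.0015), and r = 0.73 without the first 2 HFS arrays.

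For deviations from group means, r was 0.94 for Egr1 with Egr4, 0.90 for Egr1 with Egr2 and 0.89 for Egr2 with Egr4, and for deviations from slide means it was 0.95, 0.85 and 0.86. In the 9 arrays without the HFS group it was 0.90, 0.74 and 0.76, of which the pair of Egr1 and Egr4 alone kept an adjusted permutation p under 0.05 (0.024, against 0.139 for both others). Within the 6-OHDA group Egr2 did not follow the other two, being highest in the third rat (8.81), where Egr4 was lowest (14.13). Egr3 had r = 0.42 to Egr1, 0.55 to Egr2 and 0.36 to Egr4, with adjusted permutation p-values of 0.425, 0.261 and 0.425. In the same order, r was 0.64, 0.65 and 0.56 for deviations from slide means. It was 0.0030, 0.20 and -0.035 for deviations from group means, and these values were not tested. Nab2 had r = -0.10 with Egr1, 0.12 with Egr2 and -0.22 with Egr4. For deviations from group means r was -0.52, -0.41 and -0.66, whereas for deviations from slide means it was -0.046, 0.18 and -0.17. These deviations were not tested. Nab1 had -0.08, 0.17 and 0.06 over the 12 arrays. Between Nab1 and Nab2 r was 0.36, with an adjusted permutation p = 0.425. Egr3 and Nab1 were the 2 genes nearest to background.

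**Figure D4:**
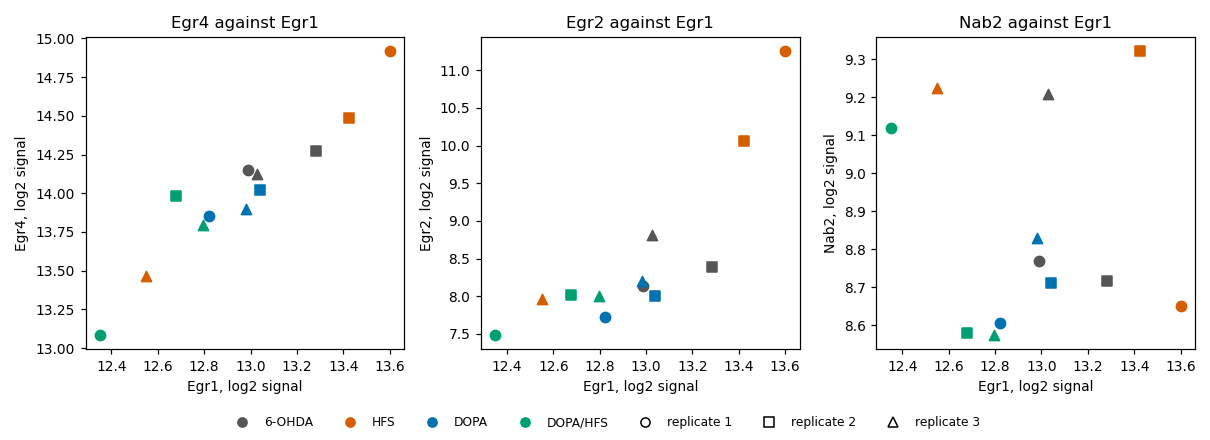
Log2 signal of Egr4, Egr2 and Nab2 (y axes) against Egr1 (x axis) over the 12 arrays, coloured by group with replicate as symbol. Egr4 follows Egr1 along a line (r = 0.95), Egr2 follows it with the first 2 HFS arrays far above (r = 0.84), and Nab2 shows no such line (r = -0.10).

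Among the 8625 other genes with a gene symbol and a value on every array, Egr1 and Egr4 were each other's nearest gene. Next to Egr1 came Cryab (r = 0.89), a small heat shock protein, Dusp6 (0.88), a dual specificity phosphatase, Midn (0.86) and Acaa1a (0.86). Next to Egr4 came Midn (0.90), Atp6v0e1 (0.87), Cryab (0.86) and Dusp6 (0.85), so 3 genes stood in both lists. Egr2 was most like Slc25a25 (0.94), a mitochondrial carrier, followed by Smn1, Plekhf1, A2m and Dus3l at 0.91 to 0.89. Nab2 was nearest to Kcng1 (0.96), a potassium channel subunit, and to Rps6ka5 (0.95), the kinase MSK1, then Phf15, Actn4 and Tyro3. The genes nearest to Egr3 were Sh3rf2, Hbg1, Tpcn1, Pxn and Cyp2s1, with r of 0.84 to 0.79, and those nearest to Nab1 were Gjc3, Hif1an, Rgnef, Ap3b1 and Mmadhc, with r of 0.93 to 0.86. These are the highest of many correlations over 12 arrays and are given as a description.

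The other immediate early genes formed the wider class to which the Egr genes belong, and 22 of 26 listed genes were tested. Limma called 0 of the 22 in each of the 6 comparisons. For the average L-DOPA difference 18 of the 22 lay below 0, against 54.6% of all genes, with a median of -0.33 against -0.016 over all genes. At an unadjusted limma p under 0.05, 9 were lower, against 1.49% of all genes. Fos, the partner of Jun in the AP-1 factor, was lowest at -1.46 ± 0.30 (SE, limma adjusted p = 0.46). Arc, which acts at the synapse and is also a reported Egr target, differed by -0.63 ± 0.24 and Dusp1, a phosphatase of the MAP kinases, by -0.77 ± 0.26. In the DOPA/HFS group 18 of 22 lay below the 6-OHDA mean, against 52.4% of all genes, with a median of -0.38 against -0.012 over all genes.

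**Figure D5:**
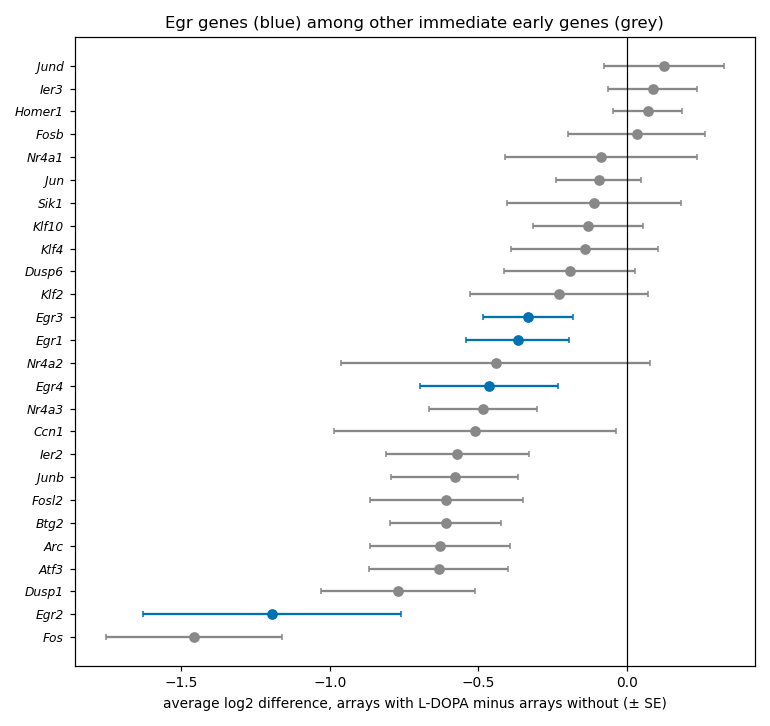
Average log2 difference between arrays with and without L-DOPA (x axis, estimate ± SE, limma over 12 arrays) for the 4 Egr genes in blue and 22 other immediate early genes in grey. Of the 26 genes shown, 22 lie below 0, with Fos at -1.46 and Egr2 at -1.19 lowest.

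The class did not move as 1 block. In the HFS group 10 of the 22 lay above the 6-OHDA mean and 12 below, where 48.5% of all genes lay below, with a median of -0.059. Nr4a3, an orphan nuclear receptor, was higher by 1.55 ± 0.26 (limma adjusted p = 0.864), with every HFS array above every 6-OHDA array. Btg2, an antiproliferative gene, was lower by the log2 difference -0.73 ± 0.26. Fos was 8.06, 7.92 and 9.85 in the 6-OHDA group and Arc 12.87, 12.89 and 13.93, so that both were high in the third lesion rat. Egr2 was also highest of its group there, whereas Egr1 and Egr4 were not. The median r of the 22 genes with Egr1 was 0.51, with 12 above 0.5, against a median of 0.028 and 9.61% above 0.5 over all genes. With Egr2 the median was 0.46 and with Egr4 0.53. Dusp6 was nearest to Egr1 (0.88), and Fosb (-0.27) was farthest from it.

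Upstream of the Egr genes, 13 of 16 listed regulators were tested, among them Srf, Elk1 and Creb1. None was called by limma in any of the 6 comparisons. This includes Mapk3, a tested regulator that the study lists as lower in DOPA/HFS than in 6-OHDA. Of the 13, 1 was higher (Elk3, by 0.70 ± 0.27) and 1 lower (Mef2a, -0.77 ± 0.33) at an unadjusted limma p under 0.05 in DOPA/HFS vs 6-OHDA, 0 in HFS vs 6-OHDA and 0 in DOPA vs 6-OHDA. Srf gave an average L-DOPA difference of -0.29 ± 0.17. Of 18 genes reported elsewhere as Egr targets, 17 were tested and 0 called in each comparison. Against 6-OHDA their median difference was -0.0057 in the HFS group, 0.052 in the DOPA group and -0.010 in the DOPA/HFS group, where the medians of all genes were 0.0086, -0.010 and -0.012. The largest value belonged to Ngfr, the low affinity neurotrophin receptor, which was higher in DOPA by 3.06 ± 0.53 (limma adjusted p = 0.872) and in DOPA/HFS by 1.66 ± 0.53. The study lists Ngfr, Nr4a3, Btg2, Fos and Egr1 among genes it selected on these samples, so their directions are not independent evidence.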

How the data were processed

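Total RNA of dorsal striatum punches from 12 rats was labelled with Cy3 and hybridised to 1 Agilent rat array each. Per the labels and file headers, the authors extracted the deposited spot intensity with Agilent Feature Extraction 9.1, background-subtracted and detrended within each array but not scaled between arrays. The deposited log2 table was quantile normalized by the authors and served as an alternative.

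From the processed intensity, log2 values were taken with the 1639 control spots and all outlier spots left out, quantile normalized between arrays and averaged per probe. Probes well above background on at least 0.4 of arrays were kept, with the brightest probe per gene (43379 spots, 41012 probes). Probes whose RefSeq accession was in a gene table took its symbol (10735), and the others kept the name given in the scanner files. Group means were fitted over all 12 arrays with limma 3.58.1 in R 4.3.3 with Benjamini-Hochberg adjustment. Called genes had an adjusted p under 0.1 and a fold change over 1.2 or under 0.8. Single values were also tested by exact permutation over arrays. Correlations between genes used 100000 permutations (numpy and scipy). The scripts were tested on simulated data.

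The 6 genes and all gene lists were chosen with earlier results of these data known. Genes named are the 6 genes, genes of the lists and the 5 genes with a symbol that correlated most with each, with exceptions marked. Cell type lists covered striatal projection neurons, cortical excitatory neurons, choroid plexus, ependyma, leptomeninges, oligodendrocytes, microglia, endothelium and astrocytes. Alternatives were another scaling, background correction, source of values, filters, probe rule, outlier rule, threshold, replicate block, fits of fewer arrays and each array left out in turn. The number of arrays limits the precision. Replicate number marked the slide in the file headers. Same-numbered arrays deviated together only in part, with mean correlations of -0.01, 0.28 and 0.10 on slides 1, 2 and 3.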

Additional observations from a re-analysis of the deposited data

How the results depend on the processing

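Under every alternative tried, limma called 0 of the 6 genes in each of the 6 comparisons. With replicate number (the slide) as a block the count was also 0 in all 6. Egr2 kept its average L-DOPA difference of -1.19 ± 0.46 (SE, limma adjusted p = 0.999) and its HFS difference of 1.31 ± 0.65. Over all genes, DOPA vs 6-OHDA had 0 calls with the block against 1 in the main fit. The number of all genes called ranged from 0 to 3 in HFS, 0 to 13 in DOPA and 0 to 3 in DOPA/HFS against 6-OHDA, and from 1 to 28 for the average L-DOPA difference. The cause was not tested.

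In the deposited log2 table the median of all genes was -0.12 in DOPA/HFS vs 6-OHDA and -0.10 in the interaction, so values there are relative to that shift. Differences near 0 changed sign. With 75th percentile scaling Egr4 in HFS vs 6-OHDA was -0.0093 and the average stimulation difference of Egr3 was 0.019. With normexp background that Egr3 value was 0.018 and Nab1 in DOPA/HFS vs 6-OHDA was -0.0019. Nab1 was -0.022 there in the deposited log2 table and -0.097 with outlier spots kept. The ranges over the 12 fits without 1 array were -0.11 to 0.41 for Egr1, -0.21 to 0.52 for Egr4 and -0.19 to 0.76 for Nab1 in HFS vs 6-OHDA. They were -0.32 to 0.013 for Egr3 in DOPA vs 6-OHDA, -0.52 to 0.44 for Nab1 and -0.32 to 0.016 for Nab2 in DOPA/HFS vs 6-OHDA. For the average stimulation difference they were -0.23 to 0.037 for Egr1, -0.091 to 0.095 for Egr3 and -0.25 to 0.11 for Egr4. For the interaction of Nab2 the range was -0.33 to 0.0038. The 3 correlated pairs remained 3 under both other scalings and were 1 without the HFS group, an alternative chosen after seeing the data.

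Egr3 and Nab1 lay near background, which limits their values. With 3 arrays per group, exact permutation could not go below p = 0.1.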

Other observations

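The other cell type lists gave 0 called genes in each of the 6 comparisons by limma. In HFS vs 6-OHDA, the median log2 difference was 0.52 over 4 ependyma genes, 0.23 over 7 leptomeninges genes, 0.05 over 7 oligodendrocyte genes, 0.04 over 7 microglia genes, -0.04 over 7 endothelium genes, 0.14 over 7 astrocyte genes, -0.05 over 11 striatal projection neuron genes and 0.38 over the 3 cortical excitatory neuron genes on the array. At an unadjusted p under 0.05, 1 of the 7 leptomeninges genes and 1 of the 11 projection neuron genes were higher, and 0 of the genes of the other 6 lists passed.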
